A study of Coprinopsis cinerea AmutBmut pab1-1 with 7 samples.

Results

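Of the 8740 *Coprinopsis cinerea* genes with 20 or more counts in each wild-type library, 35 changed in 1 *cre1* mutant strain by the rule described here while the other mutant stayed near the wild type. The table holds 14242 genes. These 35 genes were chosen by their own expression values, so every value of them below is a description and none is a test. A gene was taken where both libraries of 1 mutant were at least 2 times the highest wild-type value, or at most 1/2 of the lowest, in CPM (counts scaled to a common library size), while both libraries of the other mutant lay between the lowest wild-type value divided by 1.4 and the highest multiplied by 1.4. The rule names 8 gene IDs to be left out, and 0 of those met its limits. The class that was higher in the strain labelled Δ*cre1*-43 had 8 genes (0.0915% of the 8740), and the class that was lower in it had 7 (0.0801%). In the strain labelled Δ*cre1*-91, 4 genes were higher (0.0458%) and 16 were lower (0.183%). They are called rises and falls below as the rule sorted them, not by a test.

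The data are Quant-Seq libraries, in which a short read is taken near the 3′ end of each polyadenylated RNA, from mycelium grown in the dark on cellophane for 84 h at 28°C on yeast and malt extract agar with 0.2% glucose. The strains were Δ*cre1*-43 (2 libraries), Δ*cre1*-91 (2 libraries) and the wild type (3 libraries), and all share the homokaryotic, self-fertile AmutBmut *pab1-1* background. Each mutant is 1 transformant, made with preassembled Cas9 and a split *pab1* marker cassette directed to *cre1*, so it carries a functional *pab1* that the wild type lacks. From PCR and sequencing of flanking fragments, the study reports that the cassette replaced *cre1*, with guides placed at both ends of the gene. It also states that a short inner piece of *cre1* could still be amplified from both mutants at many PCR cycles, and regards both as deletion mutants. Whether the libraries of a strain came from separate cultures is not stated, so the errors given here measure only the spread between these libraries. With 1 transformant per label, a change seen in 1 strain cannot be told apart from a change of that transformant that is independent of *cre1*. The culture was not checked against a list of mycelium markers.

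Cre1 is a zinc finger protein that represses genes for the use of other carbon sources while glucose is present, a response called carbon catabolite repression. In fungi it is best known for holding down secreted enzymes that break plant cell walls, and sugar transporters. The study made a pair of independent deletion strains, which lets responses they share be set apart from those seen in 1 strain.

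The targeted gene itself was counted in every library. The Δ*cre1*-43 libraries held 58 and 69 *cre1* counts, the Δ*cre1*-91 libraries 67 and 49, and the wild-type libraries 94.5, 81 and 122. Scaled for depth these were 8.72 and 8.16 CPM, 8.51 and 6.26 CPM, and 8.73, 7.89 and 11.3 CPM, so the 3 strains overlapped. The study's PCR and sequencing place the cassette at this gene in both mutants. It also counts its Quant-Seq results, in which carbohydrate metabolism genes rose in the mutants, as evidence of the deletion. Where on *cre1* the reads given here lie was not examined, so these counts were not used to check the place of the cassette. The strain names below are those of the labels. The 4 mutant libraries held 6232853 to 8514379 assigned counts each, and the wild-type libraries 10196878 to 10784958. Wild-type replicate 2 had the highest of the wild-type values in 17 of the 35 genes and in 3186 of the 8740.

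More genes passed the fold limit in both mutants than met the rule. For 177 genes both Δ*cre1*-43 libraries were at least 2 times the highest wild-type value. Both Δ*cre1*-91 libraries had passed the same limit for 118 of them (66.7%), 51 lay in neither zone, and 8 (4.52%) are the genes described here. For the 145 genes that were past the lower limit in Δ*cre1*-43, Δ*cre1*-91 was past it too for 99 (68.3%), and 7 (4.83%) met the rule. Of 226 genes past the upper limit in Δ*cre1*-91, Δ*cre1*-43 was past it too for 118 (52.2%), 104 lay in neither zone and 4 (1.77%) met the rule. Of 226 past the lower limit in Δ*cre1*-91, Δ*cre1*-43 was past it for 99 (43.8%), 111 lay in neither zone and 16 (7.08%) met the rule. In no case was 1 mutant past the upper limit and the other past the lower one. Over the 8740 genes the median log2 ratio to the wild type was -0.053 in Δ*cre1*-43 and -0.049 in Δ*cre1*-91. Both mutants are set against the same 3 wild-type libraries, so these counts are not independent.

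**Figure D1:**
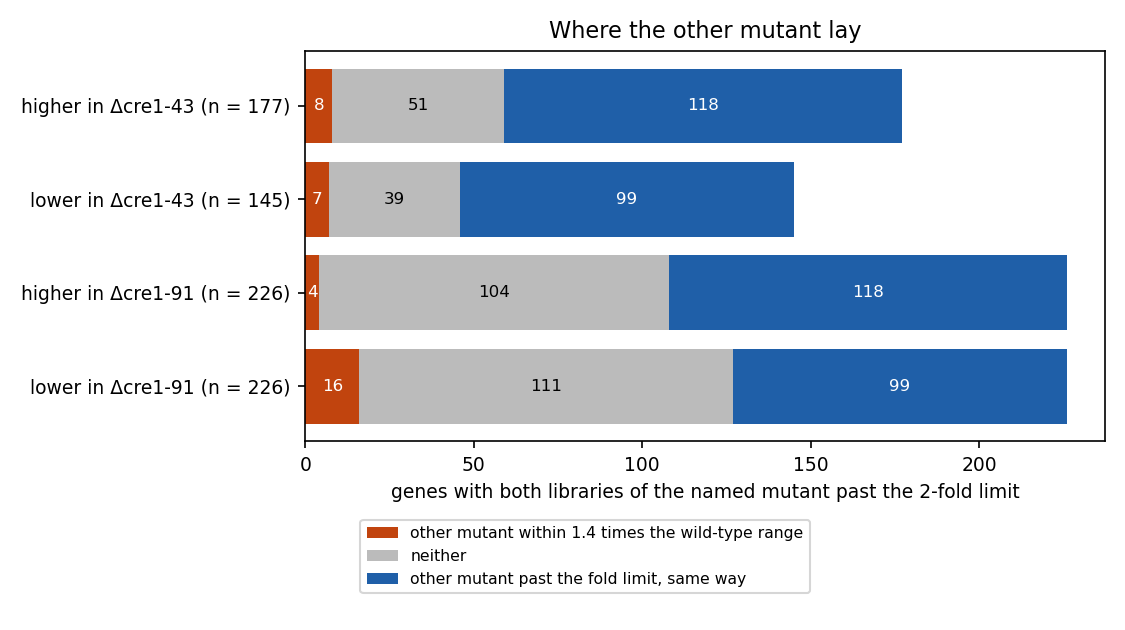
Number of genes (horizontal axis) whose 2 libraries of the named mutant both passed the 2-fold limit against the wild type, split by where the other mutant lay. The genes described here are the orange ends of the bars, 8, 7, 4 and 16 genes, and the blue parts are the 118 and 99 genes past the limit in both mutants.

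**Figure D2:**
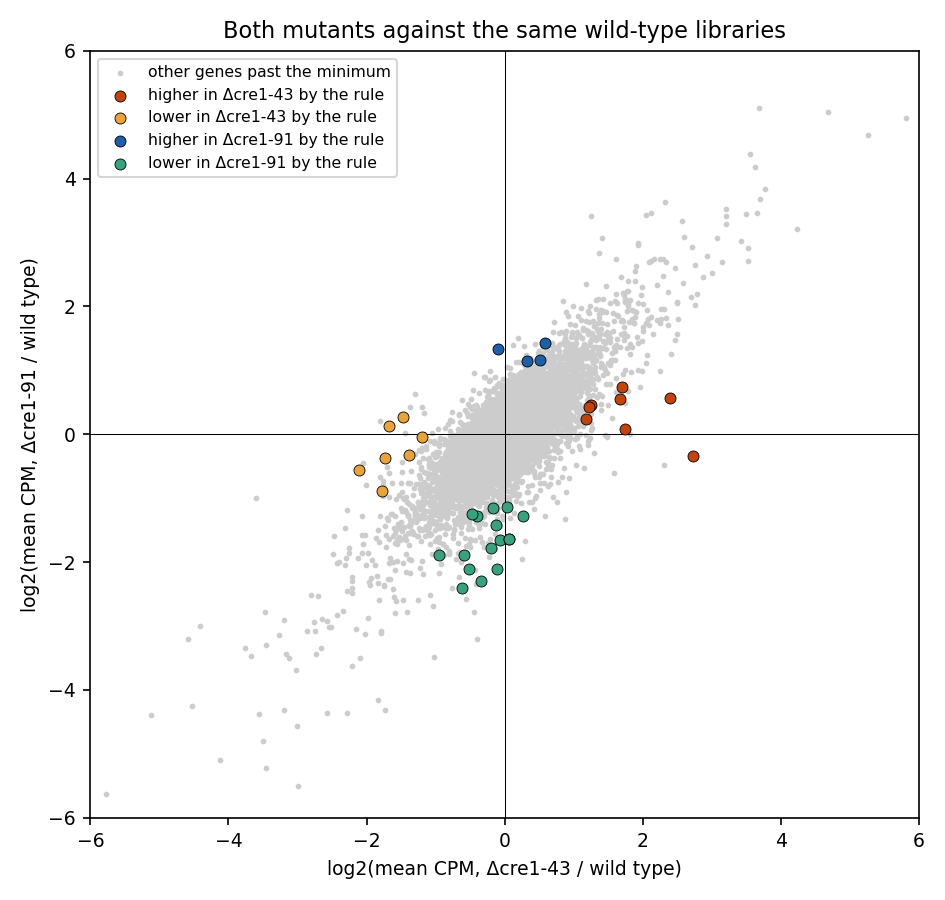
Log2 ratio of mean CPM to the wild type in Δ*cre1*-43 (horizontal axis) and Δ*cre1*-91 (vertical axis) for genes past the wild-type minimum, 1 point a gene, with the 35 chosen genes in colour; 1 gene with a mutant mean of 0 is not drawn. The chosen genes lie near 1 axis because the rule placed them there, and both axes share the wild-type libraries.

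The 8 genes that were higher in Δ*cre1*-43 had 2.27 to 6.62 times the wild-type mean in that strain (median 3.23). Their means in Δ*cre1*-91 were 0.790 to 1.68 times the wild type (median 1.36). The leading gene was 410774, a single-exon model of 309 coding bases on scaffold 783 (1118 to 1826, minus strand), for which the tables used here give no annotation. It had 28.9 and 19.2 CPM in Δ*cre1*-43, 3.56 and 2.17 CPM in Δ*cre1*-91, and 2.22, 6.72 and 1.95 CPM in the wild type. Both Δ*cre1*-43 libraries stood above all the others, while the Δ*cre1*-91 values fell inside the wild-type range. Its log2 difference between Δ*cre1*-43 and the wild type was 2.72 ± 0.38 (standard error). The standard errors here and below were worked back from the edgeR coefficient and its test statistic, whose variance estimate also draws on other genes. The model shares its scaffold end with 436714, a model on the same strand that overlaps it and starts at position 1, which had 97.7 and 98.4 CPM in Δ*cre1*-43, 82.2 and 86.7 CPM in Δ*cre1*-91, and 99.4, 126 and 104 CPM in the wild type. That partner was not higher in Δ*cre1*-43, and how reads were shared between the pair was not tested. Without wild-type replicate 2, its highest wild-type library, 410774 no longer met the rule.

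Gene 380219, with 4 exons on scaffold 315 (21220 to 23091, plus strand), was second in size. It had 46.6 and 29.7 CPM in Δ*cre1*-43, 11.9 and 9.46 CPM in Δ*cre1*-91, and 5.26, 13.1 and 3.336 CPM in the wild type. The wild-type libraries themselves spread widely here, with replicate 2 well above the others, and without that library the gene no longer met the rule because Δ*cre1*-91 then lay outside the band. The second model downstream of it, 167773, listed by the study as an expansin, a protein that loosens cell walls, behaved differently. Expansin 167773 had 411 and 207 CPM in Δ*cre1*-43, 363 and 498 CPM in Δ*cre1*-91, and 50.8, 50.5 and 51.1 CPM in the wild type, so it was high in both mutants.

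Gene 44923, on scaffold 135 (61024 to 62448, minus strand), came next in size. Its values were 7.97 and 9.82 CPM in Δ*cre1*-43, 2.67 and 2.96 CPM in Δ*cre1*-91, and 2.31, 2.43 and 3.24 CPM in the wild type. The Δ*cre1*-91 libraries lay within the wild-type range, and the gene met the rule without any 1 of the 3 wild-type libraries.

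The other rises in Δ*cre1*-43 came with a smaller step in Δ*cre1*-91. Gene 496267 had 9.70 and 13.4 CPM in Δ*cre1*-43, 5.46 and 6.39 CPM in Δ*cre1*-91, and 3.14, 4.58 and 2.87 CPM in the wild type. Gene 457067 had 7.52 and 9.73 CPM in Δ*cre1*-43, 3.18 and 4.73 CPM in Δ*cre1*-91, and 2.49, 3.41 and 2.22 CPM in the wild type. In both genes at least 1 Δ*cre1*-91 library lay above every wild-type library, close to the edge of the band. Gene 494883, the most abundant of the class at 255 coding bases, had 114 and 138 CPM in Δ*cre1*-43, 60.7 and 70.4 CPM in Δ*cre1*-91, and 56.8, 54.3 and 55.1 CPM in the wild type. In this gene all 4 mutant libraries were above all 3 wild-type libraries, with the Δ*cre1*-91 pair only slightly so. The eighth gene, 488611, averaged 11.3 ± 1.25 CPM in Δ*cre1*-43, 6.56 ± 0.601 CPM in Δ*cre1*-91 and 4.86 ± 0.255 CPM in the wild type (SD, n = 2, 2 and 3).

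The annotated gene of this class was 116376, whose product carries an F-box domain, the part by which substrate receptors attach to a ubiquitin ligase that marks proteins for breakdown. It is a single-exon model of 2061 coding bases on scaffold 22 (209696 to 212156, minus strand). It had 27.9 and 30.2 CPM in Δ*cre1*-43, 18.0 and 15.5 CPM in Δ*cre1*-91, and 13.5, 13.5 and 9.64 CPM in the wild type. The 3 strains did not overlap, with Δ*cre1*-91 in the middle, and the log2 differences from the wild type were 1.25 ± 0.21 in Δ*cre1*-43 and 0.45 ± 0.22 in Δ*cre1*-91 (standard errors).

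**Figure D3:**
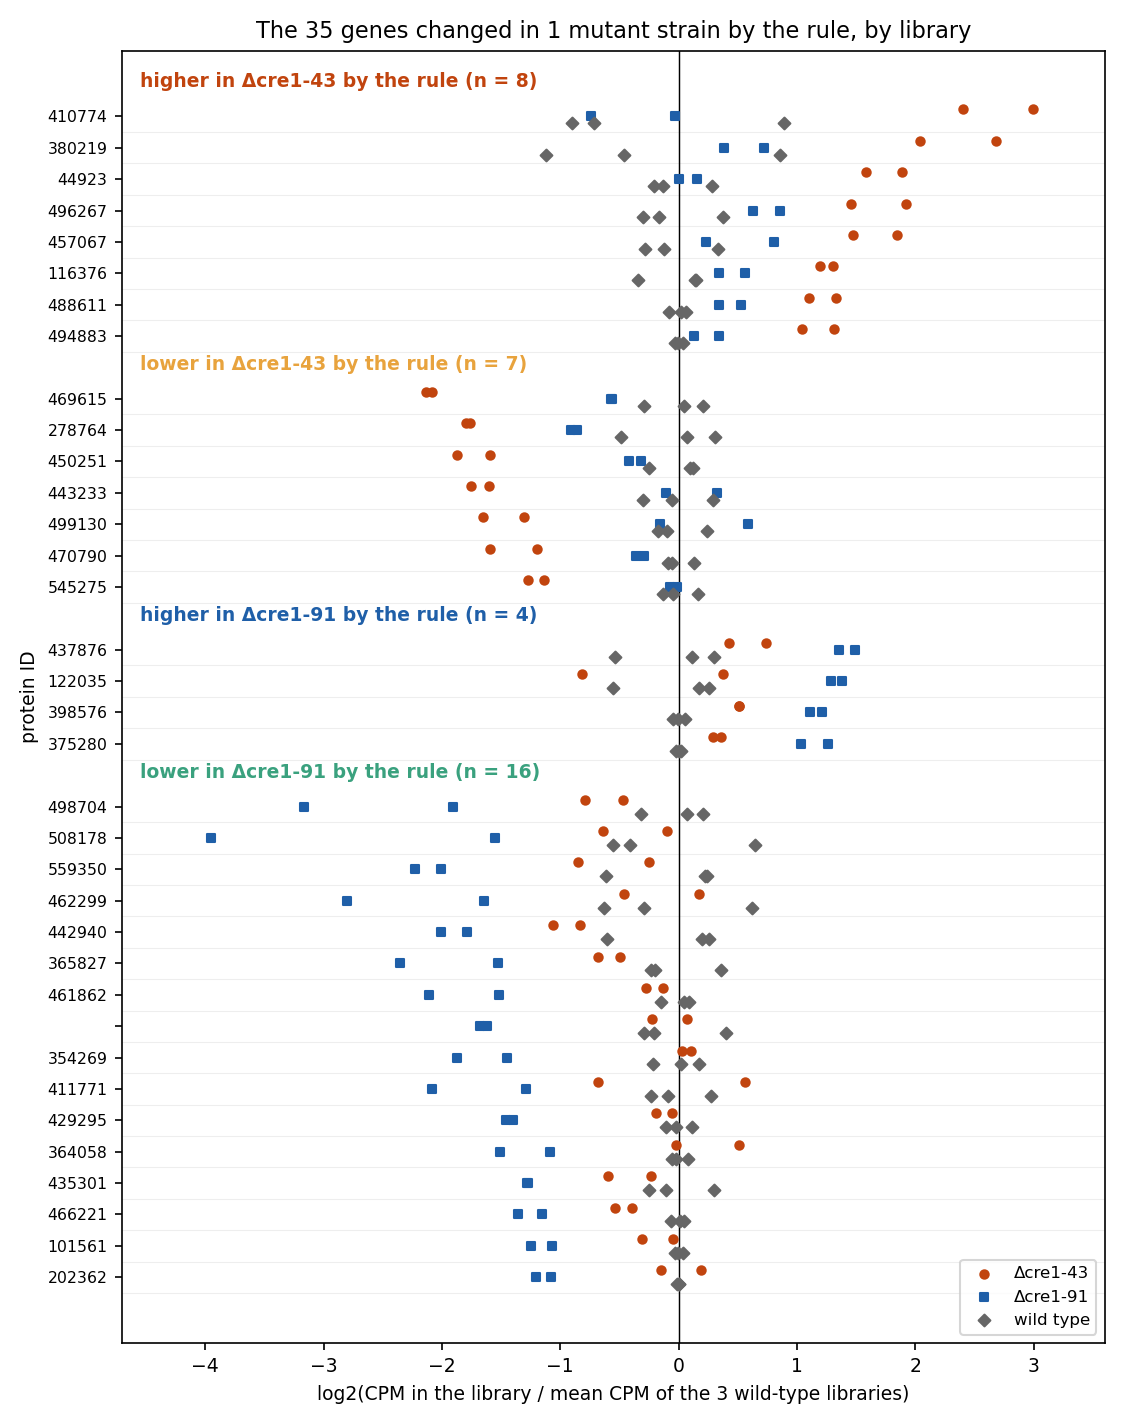
Each row is 1 of the 35 genes by protein ID (1 is drawn without its ID), and each point is 1 library, drawn as log2 of its CPM over the mean of the 3 wild-type libraries (circles, Δ*cre1*-43; squares, Δ*cre1*-91; diamonds, wild type). The 2 libraries of the strain that chose a gene lie on 1 side of all others in every row by construction, while the other mutant is inside the wild-type range in 7 of the 35.

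The 7 genes that were lower in Δ*cre1*-43 had 2.30 to 4.31 times less than the wild-type mean (median 3.19), and none has an annotation in the tables used here. Their Δ*cre1*-91 means were 0.543 to 1.201 times the wild type (median 0.798). Gene 443233, on scaffold 248 (37135 to 39089, minus strand, 5 exons), was the best counted gene of the class. It had 18.1 and 20.02 CPM in Δ*cre1*-43, 76.0 and 56.5 CPM in Δ*cre1*-91, and 49.3, 74.5 and 58.6 CPM in the wild type. These were 120.17 and 169.25 estimated counts in Δ*cre1*-43 and at least 442.14 in each other library. Both Δ*cre1*-43 libraries stood below all others, while 1 Δ*cre1*-91 library lay inside the wild-type range and 1 just above it. The log2 difference from the wild type was -1.67 ± 0.21 in Δ*cre1*-43 and 0.12 ± 0.19 in Δ*cre1*-91.

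Gene 469615, on scaffold 41 (95320 to 96670, minus strand), had the largest fall. It had 1.95 and 1.89 CPM in Δ*cre1*-43, 5.59 and 5.62 CPM in Δ*cre1*-91, and 9.56, 8.57 and 6.76 CPM in the wild type. The Δ*cre1*-91 pair also lay below all wild-type libraries. The same order held for 470790, which had 4.06 and 5.32 CPM in Δ*cre1*-43, 9.53 and 9.97 CPM in Δ*cre1*-91, and 13.4, 11.8 and 11.5 CPM in the wild type. It held for 278764 as well, with 1.65 and 1.70 CPM in Δ*cre1*-43, 3.18 and 3.07 CPM in Δ*cre1*-91, and 7.11, 4.09 and 6.04 CPM in the wild type. In these 3 genes the middle strain was Δ*cre1*-91 without overlap on either side.

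The remaining falls in Δ*cre1*-43 rest on few reads. Gene 450251 had 5.2 and 8 counts in Δ*cre1*-43, against 18 and 16.67 in Δ*cre1*-91 and 33, 32 and 26 in the wild type. Gene 499130 had 8 and 8 counts in Δ*cre1*-43, 21 and 35 in Δ*cre1*-91, and 30, 27 and 38 in the wild type. Gene 545275 had 11 and 12.71 counts in Δ*cre1*-43, 28.25 and 27 in Δ*cre1*-91, and 38, 34 and 44 in the wild type. In 5 of the 7 genes at least 1 Δ*cre1*-43 library held under 20 counts, so the size of these falls is known only roughly.

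The 4 genes that were higher in Δ*cre1*-91 had 2.22 to 2.69 times the wild-type mean (median 2.38). In all 4, the lower Δ*cre1*-91 library was within 10% of the limit of 2 times the highest wild-type value. Their Δ*cre1*-43 means were 0.933 to 1.51 times the wild type (median 1.34). The annotated one was 398576, which the study lists as a transcription factor with a copper fist, a DNA-binding fold that depends on copper and is known from regulators of copper uptake and detoxification in the yeast *Saccharomyces cerevisiae*. It lies on scaffold 78 (42441 to 44507, plus strand, 5 exons). It had 42.7 and 45.8 CPM in Δ*cre1*-91, 28.1 and 28.2 CPM in Δ*cre1*-43, and 19.1, 19.7 and 20.6 CPM in the wild type. Replicates were close in every strain, the 3 strains did not overlap, and Δ*cre1*-43 stood in the middle. Its log2 differences from the wild type were 1.16 ± 0.17 in Δ*cre1*-91 and 0.51 ± 0.18 in Δ*cre1*-43.

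Gene 437876, a 12-exon model on scaffold 115 (44011 to 46860, minus strand), had the highest level of all 35. It had 464 and 424 CPM in Δ*cre1*-91, 223 and 275 CPM in Δ*cre1*-43, and 114, 179 and 204 CPM in the wild type. As in the copper fist gene, every Δ*cre1*-43 library was above every wild-type library. Gene 375280 followed the same order with 8.29 and 9.72 CPM in Δ*cre1*-91, 4.96 and 5.21 CPM in Δ*cre1*-43, and 4.06, 4.12 and 3.98 CPM in the wild type. Gene 122035 differed from these, with 16.4 and 15.3 CPM in Δ*cre1*-91, 8.17 and 3.59 CPM in Δ*cre1*-43, and 7.11, 4.29 and 7.51 CPM in the wild type. There the Δ*cre1*-43 libraries spread on both sides of the wild-type range, so no step in Δ*cre1*-43 was seen.

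The 16 genes that were lower in Δ*cre1*-91 had 2.20 to 5.29 times less than the wild-type mean (median 3.13), with Δ*cre1*-43 means of 0.520 to 1.203 times the wild type (median 0.879). Gene 101561 encodes a protein named in InterPro as a UPF0658 Golgi apparatus membrane protein, a family of uncharacterized function. It had 9.53 and 8.42 CPM in Δ*cre1*-91, 19.4 and 16.1 CPM in Δ*cre1*-43, and 19.6, 19.97 and 20.5 CPM in the wild type. It rests on 75 and 65.87 counts in Δ*cre1*-91, with a log2 difference of -1.16 ± 0.22 there and -0.18 ± 0.21 in Δ*cre1*-43. Gene 354269 has a leucine-rich repeat domain, a fold that binds other proteins. It had 0.762 and 1.02 CPM in Δ*cre1*-91, 3.01 and 2.84 CPM in Δ*cre1*-43, and 2.40, 2.82 and 3.15 CPM in the wild type, from 6 and 8 counts in Δ*cre1*-91.

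**Figure D4:**
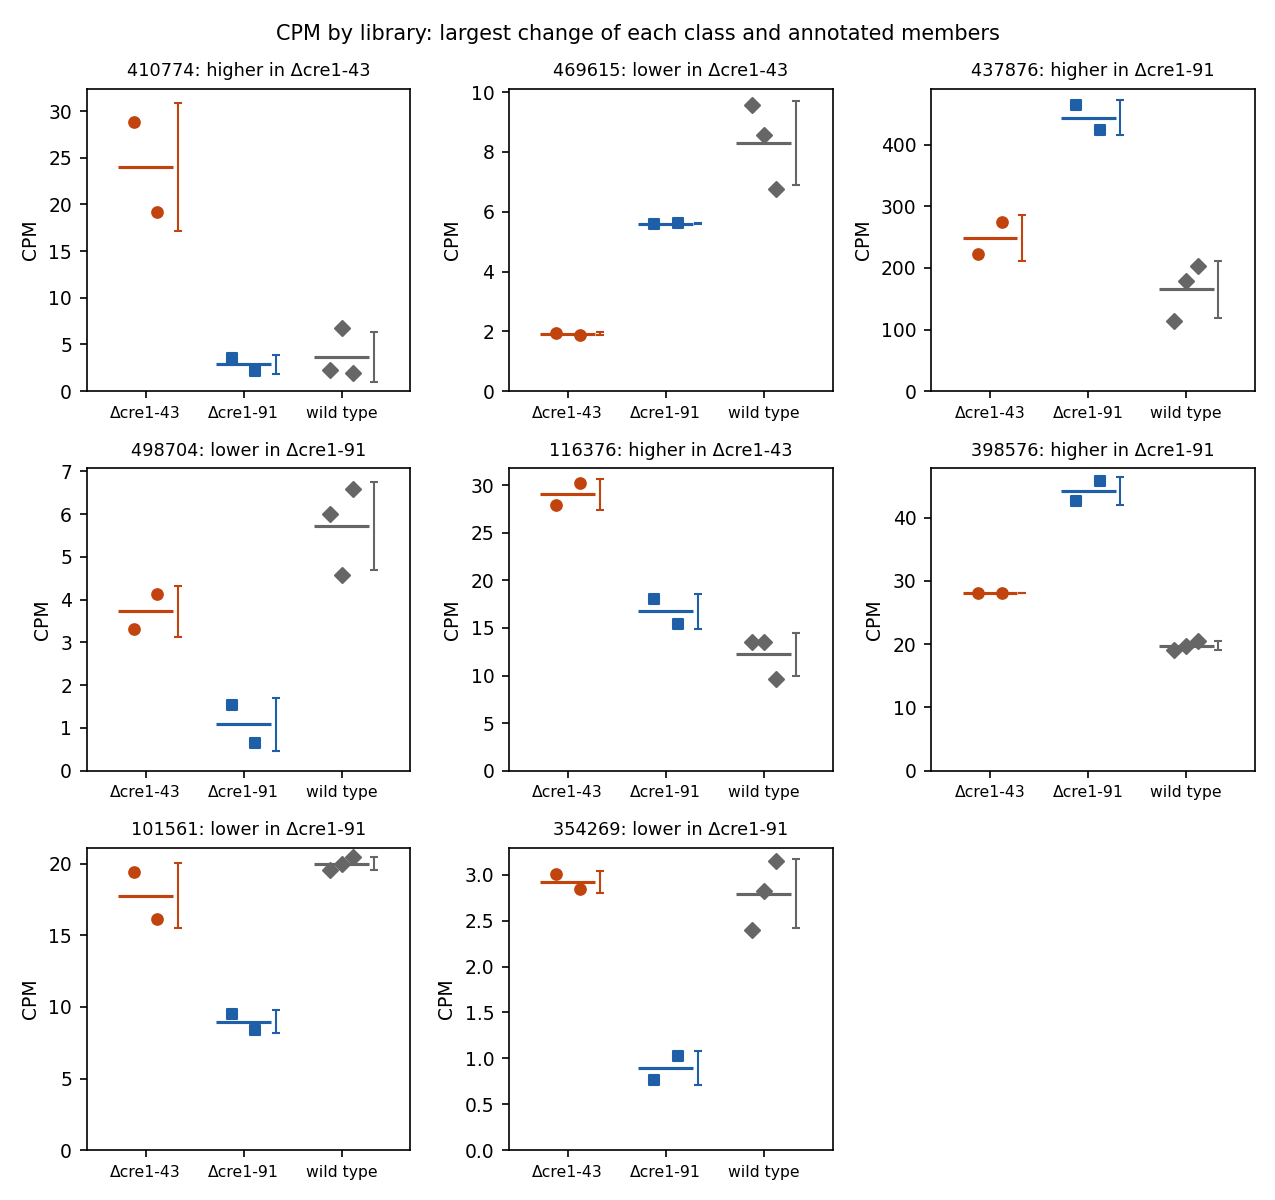
CPM (vertical axes, starting at 0) in each library for the largest change of each class and 4 annotated genes, with Δ*cre1*-43, Δ*cre1*-91 and wild type from left to right. Points are libraries, horizontal lines are means, and the bars beside them are SD (n = 2, 2 and 3); the copper fist gene 398576 and the F-box gene 116376 show the other mutant between the strain that chose them and the wild type.

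The largest fall was that of 498704, on scaffold 94 (51765 to 53566, plus strand), with 1.52 and 0.639 CPM in Δ*cre1*-91, 3.31 and 4.14 CPM in Δ*cre1*-43, and 6.002, 4.58 and 6.58 CPM in the wild type. It had 12 and 5 counts in Δ*cre1*-91. Gene 508178 had 2 and 10.5 counts in Δ*cre1*-91, 16.83 and 31.14 in Δ*cre1*-43, and 32, 63.33 and 29 in the wild type. The Δ*cre1*-91 libraries of both genes differed from each other by more than 2-fold, so these ratios are loose. Gene 462299 was alike in this, with 12 and 5.33 counts in Δ*cre1*-91, 23 and 45.2 in Δ*cre1*-43, and 33.25, 75 and 42 in the wild type. In CPM, which allows for the deeper wild-type libraries, the Δ*cre1*-43 means of 508178 and 462299 were 0.789 and 0.926 times the wild type.

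Larger counts stood behind 559350, 365827 and 466221. Gene 559350, on scaffold 109 (56064 to 57125, plus strand), had 8.002 and 9.33 CPM in Δ*cre1*-91, 31.6 and 20.8 CPM in Δ*cre1*-43, and 44.1, 43.7 and 24.5 CPM in the wild type. Gene 365827, a model of 315 coding bases on scaffold 50 (49371 to 50202, plus strand), had 29.7 and 16.7 CPM in Δ*cre1*-91, 53.5 and 61.0 CPM in Δ*cre1*-43, and 72.9, 110 and 74.8 CPM in the wild type. Gene 466221, on scaffold 225 (32805 to 34334, minus strand), had 40.1 and 34.8 CPM in Δ*cre1*-91, 61.5 and 67.7 CPM in Δ*cre1*-43, and 92.3, 89.9 and 85.4 CPM in the wild type. In 365827 and 466221 both Δ*cre1*-43 libraries were also below every wild-type library, near the edge of the band, and in 559350 1 of them was. The log2 differences in Δ*cre1*-91 were -2.11 ± 0.28 for 559350, -1.89 ± 0.24 for 365827 and -1.25 ± 0.17 for 466221 (standard errors).

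Gene 442940 had 2.41 and 2.81 CPM in Δ*cre1*-91, 4.66 and 5.44 CPM in Δ*cre1*-43, and 11.2, 11.6 and 6.39 CPM in the wild type, and its Δ*cre1*-43 mean of 0.520 times the wild type was the lowest of the class. A further 6 genes of the class were 202362, 364058, 411771, 429295, 435301 and 461862. Their Δ*cre1*-91 means were 0.290 to 0.454 times the wild type, and their Δ*cre1*-43 means 0.758 to 1.203 times. In all, 10 of the 16 genes had under 20 counts in at least 1 Δ*cre1*-91 library.

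The position of the other mutant separates the 35 genes further. Both of its libraries lay inside the wild-type range for 7 genes, which were 44923, 380219 and 410774 among the rises in Δ*cre1*-43, 545275 among the falls in it, and 3 of the falls in Δ*cre1*-91, among them 354269 and 462299. For the other 28 genes at least 1 library of the other mutant was outside that range but within the 1.4-fold band. In many of these, both libraries of the other mutant lay beyond every wild-type library on the side of the gene's change. Among the rises in Δ*cre1*-43 these were 116376, 488611, 494883 and 496267, and among the falls 278764, 450251, 469615 and 470790. In Δ*cre1*-91 they were the rises 375280, 398576 and 437876 and the falls 101561, 365827, 442940, 466221 and 498704. In others, such as 443233, 1 library lay on the opposite side. Members near the 2-fold limit, which is set against the extreme wild-type library and not the mean, were common. In 4, 3, 4 and 8 genes of the classes, the library of the changed strain nearest the limit lay within 10% of it.

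Most pairs of genes just inside and just outside a limit had similar ratios. Gene 494883 met the upper limit in Δ*cre1*-43 at 2.01 times the highest wild-type value, and 452232 missed it at 1.98 times, with 16.2 and 17.8 CPM in Δ*cre1*-43, 10.03 and 7.54 CPM in Δ*cre1*-91, and 6.83, 7.4997 and 8.15 CPM in the wild type. For the lower limit in Δ*cre1*-43, gene 545275 was inside at 2.00 times below the lowest wild-type value and 267460 outside at 1.97 times. For Δ*cre1*-91, gene 375280 was inside the upper limit at 2.01 times and 542970 outside at 1.94 times, and 508178 was inside the lower limit at 2.00 times and 96007 outside at 1.97 times. On the side of the band, the farthest library of the other mutant could lie above or below the wild-type range. It was 1.396 times the highest wild-type value in 496267, inside, and 1.501 times in 391177, outside. In the same direction, the copper fist gene 398576 was inside at 1.37 times and 419688 outside at 1.48 times. The farthest library was 1.39 times below the lowest wild-type value in 466221, inside, and 1.41 times below it in 439185, outside. Gene 278764 was inside at 1.33 times below the lowest value, while 372511, the nearest outside, was 1.59 times the highest value.

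A quasi-likelihood model (edgeR) fitted over all 14242 genes was used to call genes, with a log2 difference of 1 or more in size and a P value of 0.05 or less after Benjamini-Hochberg adjustment over all of them. In Δ*cre1*-43 it called 8 of the 8 rises, where 4.82% of all genes were called higher, and 6 of the 7 falls, where 2.16% were called lower. In Δ*cre1*-91 it called 4 of the 4 rises, where 4.97% of all genes were called higher, and 14 of the 16 falls, where 3.35% were called lower. The exceptions were 545275 in Δ*cre1*-43 and 411771 and 435301 in Δ*cre1*-91. In the strain that the rule kept near the wild type, 0 of the 35 were called by edgeR, DESeq2 or limma voom, and 7, 5 and 9 of them had an unadjusted P value under 0.05 by these tools. Of all 14242 genes, 3836, 3332 and 4181 had such a value in Δ*cre1*-43 by the same tools, and 4082, 3563 and 4352 in Δ*cre1*-91. The rule used the same libraries, so nothing is read from these counts.

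A call in 1 mutant beside no call in the other does not show that the mutants differ, and the direct comparison of Δ*cre1*-43 with Δ*cre1*-91 called few genes at all. It called 25 genes higher in Δ*cre1*-43 (0.176%) and 10 lower in it (0.0702%). Among the 35 genes, 4 were called in the direction the rule had set. They were 410774, with a log2 difference of 3.06 ± 0.47 (Δ*cre1*-43 minus Δ*cre1*-91), 443233 with -1.80 ± 0.23, 365827 with 1.30 ± 0.26 and 559350 with 1.59 ± 0.30 (standard errors). None of the 4 genes that rose in Δ*cre1*-91 was called by edgeR in this comparison, and DESeq2 called 1 of the 4. By edgeR all 4 had an unadjusted P value under 0.05, as did 33 of the 35 and 1594 of all 14242 genes. The rule had set the mutants apart on these same libraries, so nothing is read from the 33. Over the 35 genes, limma voom called 0 and had 33 with an unadjusted P value under 0.05, against 1897 of all genes. DESeq2 called 8 of the 35, and edgeR after a filter on low counts called 0. Leaving out any 1 mutant library ended all 4 calls, and 2 of the 35 were called without wild-type replicate 2. For the other 31 genes the fit called no difference between the mutants.

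The chosen genes were low in level, with a median wild-type mean of 5.72 CPM against 23.4 CPM over the 8740 genes. The wild-type libraries of 4 (11.4%) differed by 2-fold or more, against 4.07% of the 8740. The rule used the wild-type values, so this level and this spread are not separate from it. In the properties that follow, which the rule did not use, the genes shared little. Coding length had a median of 1185 bases against 1269, and the median number of exons was 4 against 5. Another gene model overlapped 22 of them (62.9%), as it did 62.9% of all 8740. Reads divided between models or places, seen as counts that are not whole, occurred in 24 (68.6%) against 75.0%. Since the setting for strand is not stated, reads of an overlapping partner cannot be told from those of the gene itself.

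Overlapping partners of 3 genes are given as examples, picked after their values had been seen. The F-box gene 116376 shares bases with 495349 on the opposite strand, which averaged 0.656 ± 0.0768 CPM in Δ*cre1*-43, 1.34 ± 0.264 CPM in Δ*cre1*-91 and 1.25 ± 0.679 CPM in the wild type (SD, n = 2, 2 and 3). The copper fist gene 398576 overlaps 265912, a ubiquitin-conjugating enzyme on the opposite strand, with 91.5 and 89.2 CPM in Δ*cre1*-91, 77.7 and 114 CPM in Δ*cre1*-43, and 110, 111 and 111 CPM in the wild type. It also overlaps 424679 on the same strand, which had 39.9 and 40.4 CPM in Δ*cre1*-91, 34.0 and 36.4 CPM in Δ*cre1*-43, and 31.4, 29.4 and 29.6 CPM in the wild type. The strains of 424679 were in the same order as those of 398576 with no overlap, and the part of this partner in the value of 398576 was not tested. Gene 488611 overlaps 473276 on the opposite strand, which was high in both mutants, at 6.31 and 5.21 CPM in Δ*cre1*-43, 8.64 and 5.75 CPM in Δ*cre1*-91, and 0.739, 0.779 and 0.927 CPM in the wild type. The part of this partner in the value of 488611 was not tested.

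The genes were scattered over the genome. They lay on 33 of the 497 scaffolds that hold a gene past the minimum, and 0 had another of the 35 as nearest model on either side. There were 2 pairs on 1 scaffold, among them 101561 and 411771, with 45 models between them, and the genes of both pairs belong to the falls in Δ*cre1*-91. Among the 130 models within 3 positions of a chosen gene that passed the wild-type minimum, the median log2 ratio in the gene's own strain, signed in its direction, was 0.19. Of these neighbours, 11 had a ratio of means of 2 or more in that direction and 5 in the other. Over all 8740 genes, 5.14% had such a ratio upward and 4.03% downward in Δ*cre1*-43, and 5.40% and 5.81% in Δ*cre1*-91.

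**Figure D5:**
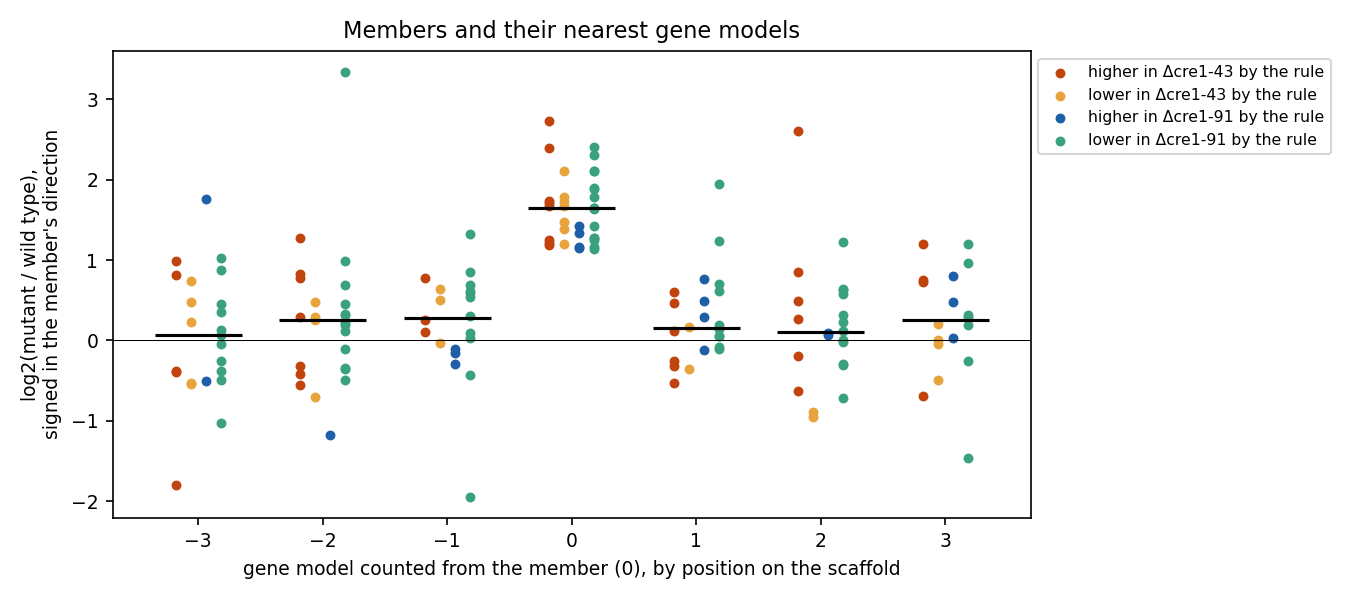
Log2 ratio of mean CPM to the wild type in the strain that chose the gene, signed so that the gene's own change is positive, for each gene (position 0) and up to 3 gene models on each side along the scaffold. Points are genes coloured by class and black lines are medians. The neighbours' median over all positions is 0.19, and the changes of at least 1 at position 0 were set by the rule.

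The surroundings of 559350 stood out and were picked after the values had been seen. The model before it, 437532, lies 975 bases away on the opposite strand and had 10.7 and 13.5 CPM in Δ*cre1*-91, 56.8 and 54.0 CPM in Δ*cre1*-43, and 41.4, 35.1 and 14.4 CPM in the wild type. It was low in Δ*cre1*-91 and above all other libraries in Δ*cre1*-43, but wild-type replicate 3 lay close to Δ*cre1*-91, which kept it from meeting the rule. The model after it, 18280, annotated as a subtilisin-like peptidase of family S8, had 1.14 and 0.895 CPM in Δ*cre1*-91, 1.95 and 1.06 CPM in Δ*cre1*-43, and 5.85, 2.92 and 3.06 CPM in the wild type. The second model before it, 400893, had 1.14 and 3.07 CPM in Δ*cre1*-91, 5.56 and 1.18 CPM in Δ*cre1*-43, and 16.3, 16.8 and 30.9 CPM in the wild type. Genes 18280 and 400893 were thus low in both mutants. The outermost models on either side, 499160 and 437538, had ratios to the wild type of 0.816 to 1.197 in Δ*cre1*-91.

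Few of the 35 genes can be given a role. Annotations were held for 2141 of the 14242 genes and for 5 of the 35, because the InterPro table used was available only in part, so most of the 30 without a name are simply not covered. The groups formed by keyword gave 2 of the 35 in protein turnover (116376 and 354269) among 165 annotated genes past the minimum. The only annotation held for 354269 is its leucine-rich repeat domain, which does not itself name protein turnover. Its place in that group thus rests on a keyword alone. The group for transcription and DNA binding held 1 of the 35 (398576) among 66. There were 0 among 111 annotated transport genes, 0 among 106 carbohydrate-active enzymes and 0 among 170 oxidoreductases. The study's own lists hold 101 enzymes of plant and fungal cell walls, 54 transporters and 31 transcription factors. Among those past the minimum, 0 of 51 enzymes, 0 of 44 transporters and 1 of 22 transcription factors were among the 35. Those lists hold genes that were called changed in these same libraries, so they are not independent of the values here. The rule took only 35 of all 8740 genes past the minimum, so nothing is read from a 0 in groups of these sizes. Less RNA of a gene per cell and fewer cells that make it cannot be told apart in whole mycelium.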

How the data were processed

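Quant-Seq data of 7 libraries were grouped by the strain named in the labels. The authors mapped reads with STAR 2.6.1a and counted them with featureCounts on gene models extended at the 3′ end; the strand setting is not given in the sources used here. The deposited table holds estimated counts, of which 20.3% are not whole, and these were rounded for the fits, which had been laid out for whole counts. The second deposited table holds scaled signal values (CPM), which equal counts divided by TMM-scaled library sizes within 0.167%; 803 genes had no count. Coordinates are those of the deposited models, counted from 1.

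The members and lists were chosen with earlier results of these data known. The rule was applied to the CPM and counts. All 14242 genes were fitted in 1 model with R 4.3.3 and edgeR 4.0.16 (TMM, glmQLFit, glmQLFTest), a coefficient per strain and Benjamini-Hochberg adjustment; alternatives used limma 3.58.1, DESeq2 1.42.0, other scalings, a filter on low counts, other limits of the rule, a replicate block and each library left out. The fit was tested on simulated data. Named are, per class, the 6 members with the largest ratio, the 2 with the highest wild-type level, all annotated members and the genes nearest each limit, except 1 annotated member that is not reported here; the remaining members, neighbours and overlapping models were named after their values were seen. No sequence is given, as no genome was used.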

Additional observations from a re-analysis of the deposited data

Results flagged for a closer look

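The direct comparison of the mutants called 25 genes higher and 10 lower in Δ*cre1*-43 over all genes, and 4 of the 35 chosen genes were among them. The rule had chosen them on these libraries, so the values are descriptions. Gene 410774 had a log2 difference (Δ*cre1*-43 minus Δ*cre1*-91) of 3.06, with 192 and 162 counts in Δ*cre1*-43 against 28 and 17 in Δ*cre1*-91. Gene 443233 had -1.80, with Δ*cre1*-43 below Δ*cre1*-91. Gene 559350 had 1.59 and gene 365827 had 1.30, both with Δ*cre1*-43 above Δ*cre1*-91. In each, the libraries of the mutants did not overlap, but the limits of the rule require this of every gene it takes. The comparison called 0.176% of all genes higher and 0.0702% lower. None of the 4 was called under limma voom or after a filter on low counts.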

How the results depend on the processing

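Class sizes depend on the limits and on single libraries, which is inherent in a rule on the extreme libraries. In the order rises and falls in Δ*cre1*-43, then rises and falls in Δ*cre1*-91 (8, 7, 4 and 16 genes), a fold limit of 3 left 0, 1, 0 and 1, and a band of 1.2 left 3, 3, 1 and 8. A wild-type minimum of 10 gave 13 rises in Δ*cre1*-43, and scaling by library size alone gave 2 rises in Δ*cre1*-91. Leaving out each library in turn gave 10 to 41, 5 to 50, 3 to 25 and 17 to 87 genes. Leaving out a mutant library can only relax the rule, so all 35 are kept there by construction. Without wild-type replicates 1, 2 and 3, 33, 26 and 27 of the 35 met it, and 17 met it in all 3 cases. Under both other scalings 28 remained.

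Calls against the wild type over all genes stayed within 1.5 times the main count in each direction. Falls in Δ*cre1*-91 (477) ranged over 352 without its replicate 2 to 617 with library size only, where 50.2% of the calls in that strain were higher, against 59.7%. Of the members, without 1 library 2 to 4 of the rises and 9 to 16 of the falls in Δ*cre1*-91 were called in that strain, the lowest without Δ*cre1*-91 replicate 2 for the rises and without either Δ*cre1*-91 library or wild-type replicate 2 for the falls. The comparison of the mutants (25 genes higher and 10 lower in Δ*cre1*-43) was not steady. It gave 0 and 0 with limma voom or after the filter on low counts, although 1897 and 1408 genes had an unadjusted P value under 0.05. It gave 51 and 17 with DESeq2, 93 higher with library size only (87.7% of calls were higher, against 71.4%), and 78 and 23 with only the groups compared. Leaving out 1 library gave 0 to 82 and 0 to 23. Members called there, in the class order above (1, 1, 0 and 2), fell to 0, 0, 0 and 0 with limma voom or the filter. There were 3 rises in Δ*cre1*-43 and 1 in Δ*cre1*-91 with DESeq2 or only the groups compared, and 4 rises in Δ*cre1*-43 and 4 falls in Δ*cre1*-91 with library size only. Without 1 library they ranged over 0 to 3, 0 to 1, 0 to 1 and 0 to 3. The cause was not tested.

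Same-numbered libraries deviated together weakly for Δ*cre1*-43 and the wild type (r of 0.13 and 0.15), but not for the mutants (-0.21) or for Δ*cre1*-91 and the wild type (-0.047 and -0.046, across 9189 genes, which are not independent). With 2 libraries in each mutant, their deviations from the mean are mirror images. Mutant libraries of different number thus had r of 0.21, and these values are not separate evidence. With a replicate block the comparison of the mutants gave 18 genes lower in Δ*cre1*-43, with 2 rises in Δ*cre1*-43 and 1 in Δ*cre1*-91 called among the members. Against the wild type, 28 members were called with the block in the strain that chose them, against 32 without it, with 4 of the 7 falls in Δ*cre1*-43 and 12 of the 16 in Δ*cre1*-91. In the strain that the rule kept near the wild type, 1 member was called with the block and 1 without wild-type replicate 2 or 3. Of 770 recomputed log2 differences of members, 0 with a call changed sign and 104 moved by more than the spread between replicates.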
